A study of Arabidopsis thaliana with 11 samples.

Results

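Roots of watered plants that overexpress the brassinosteroid (BR) receptor *BRL3* were compared with watered WT roots, in 5 of the 11 root RNAseq samples of the study. The samples were chosen by their labels alone, as mature roots of the watered control condition. They comprised 3 samples of Col-0 WT (replicates 1, 2 and 3) and 2 samples of 35S:BRL3 (replicates 1 and 3). The 35S:BRL3 plants, called BRL3ox, carry a BRL3-GFP fusion driven by the 35S promoter in the Col-0 background, and 1 such line was used. The 35S promoter is active in most plant cell types, and the native gene in the vascular cylinder. All plants were grown for 7 days on plates and 16 days in soil before the treatment of 5 days, and the labels thus place them at 28 days of age, where the methods of the study give 3 weeks. During the treatment the control plants were watered normally. The 6 drought samples, 3 of WT and 3 of BRL3ox roots from which water was withheld for 5 days, were used to estimate the spread between samples and to follow the same genes under the other condition. The number of plants behind each sample is not stated in the sources used here, so p-values measure the spread between these samples. Replicate 2 of the watered BRL3ox roots was not analysed here.

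Brassinosteroids are plant steroid hormones that bind leucine-rich repeat receptor kinases at the cell surface. *BRI1* is the main receptor, expressed in most growing cells, and *BRL1* and *BRL3* are its vascular relatives, which bind the same hormone. The signal passes through the coreceptor *BAK1* and the kinase *BIN2* to the transcription factors *BZR1* and *BES1*, which repress hormone synthesis genes such as *CPD* and *DWF4*. The question put by the comparison is which genes already differ in BRL3ox roots before any water shortage. Besides BR, the stress hormones matter here: abscisic acid (ABA) builds up in drying tissue and acts through receptors that inhibit PP2C phosphatases, and jasmonate (JA) builds up within minutes of wounding and acts by the removal of JAZ repressors.

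Counts on genes ranged from 18610736 to 21819318 per watered sample, and normalized counts are given as CPM, the count relative to the TMM-scaled library size. Of the 20718 genes with enough counts to be tested, 160 (0.772%) were called deregulated, at an FDR under 0.05 and a fold change over 1.5 by edgeR's quasi-likelihood test. The calls comprised 45 upregulated genes (0.217% of those tested) with a median log2 fold change of 1.03 and 115 downregulated genes (0.555%) with a median of -1.71. A change of more than 4-fold was found for 5 of the upregulated and 37 of the downregulated genes. An unadjusted p under 0.05 was found for 3305 genes. Both BRL3ox samples lay above all WT samples for 18.2% of the tested genes and below them for 18.8%, and a gene without overlap is to be read against these shares. The number of calls in each list below is likewise to be read against 0.217% upward and 0.555% downward. Those shares hold for edgeR calls alone. Where a list is given with calls by DESeq2 or with unadjusted p-values under 0.05, the backgrounds are 867 and 3305 of the 20718 tested genes.

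The number of calls moved with single libraries. Of the 115 downregulated genes, WT replicate 2 had the lowest of the 3 WT values for 107, so that it lay closest to BRL3ox. Among the 45 upregulated genes each WT replicate was lowest, and thus farthest from BRL3ox, for 15. Which WT replicate lay closest to BRL3ox among the upregulated genes was not counted. Without WT replicate 2, 921 genes were called, against 4 without WT replicate 1 and 42 without WT replicate 3. Leaving out 1 of the drought samples left between 30 and 180 genes. Without BRL3ox replicate 1 or without BRL3ox replicate 3, 3 genes were called in each case, namely *HB17*, *BRL3* and *BRI1*. The calls of all other genes named below were therefore lost without either BRL3ox sample, and all but those of *HB17*, *BRL3*, *YUC9* and *ATC* were lost without WT replicate 1. The 160 genes kept their direction in every one of these fits. Shoot and photosynthesis markers, which a root sample should lack, summed to 426 CPM in WT replicate 2, to 134 and 46.8 CPM in WT replicates 1 and 3, and to 167 and 50 CPM in BRL3ox replicates 1 and 3. These 13 tested markers all had lower fitted values in BRL3ox, with a median log2 difference of -1.06, but their values overlapped between the genotypes for 12 of them, among them the most abundant, *LHCB1.3*, at 30.7, 179 and 1.25 CPM in WT and 66.2 and 1.56 CPM in BRL3ox roots. The exception, *CA1*, which encodes a carbonic anhydrase, was called and fell by 2.79 on the log2 scale (adjusted p = 0.0473), from between 0.841 and 2.34 CPM to 0.192 and 0.253 CPM. Part of its transcript (9.04% of 45-base stretches) is shared with the transcripts of the gene *LSF1*. The part of shoot tissue in the results was not tested. Markers of the root itself were present in all samples, with sums of 576 to 669 CPM for the xylem list in WT and of 583 and 606 CPM in BRL3ox roots.

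The receptor genes were the first point of difference. *BRL3* (AT3G13380, chromosome 3, plus strand, 4346330 to 4350939, TAIR10.1, with up to 2 annotated exons) was at 62.1, 59.2 and 64.8 CPM in WT replicates 1 to 3 and at 974 and 1652 CPM in BRL3ox replicates 1 and 3. The groups were far apart, and the BRL3ox samples differed from each other by more than the WT samples did. *BRI1* (AT4G39400) was at 137, 130 and 173 CPM in WT and at 1253 and 497 CPM in BRL3ox roots. Both BRL3ox samples thus lay above every WT sample, and *BRI1* rose by 2.58 on the log2 scale (SE 0.29, adjusted p = 0.0158), although the transgene of the label is *BRL3*. *BRI1* was highest in the sample where *BRL3* was lower, and lower in the sample where *BRL3* was highest. In drought, the same line was at 103, 95.6 and 104 CPM for *BRI1* and the WT samples were at 135, 133 and 130 CPM, a log2 fold change of -0.40 that was not called (adjusted p = 0.391). The genotype difference of *BRI1* in drought minus that when watered was -2.98 on the log2 scale, with an unadjusted p of 1.3e-05 and an adjusted p of 0.0631 that missed the threshold. The watered BRL3ox samples therefore stood apart from the 3 drought samples of the same label in this gene. Whether they hold the labelled line alone was not tested, and every watered difference given here rests on these 2 samples. Its log2 fold change was 1.76 without BRL3ox replicate 1 and 3.09 without BRL3ox replicate 3, and the call was lost only without WT replicate 1 and in a fit of the 5 watered samples alone.

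**Figure D1:**
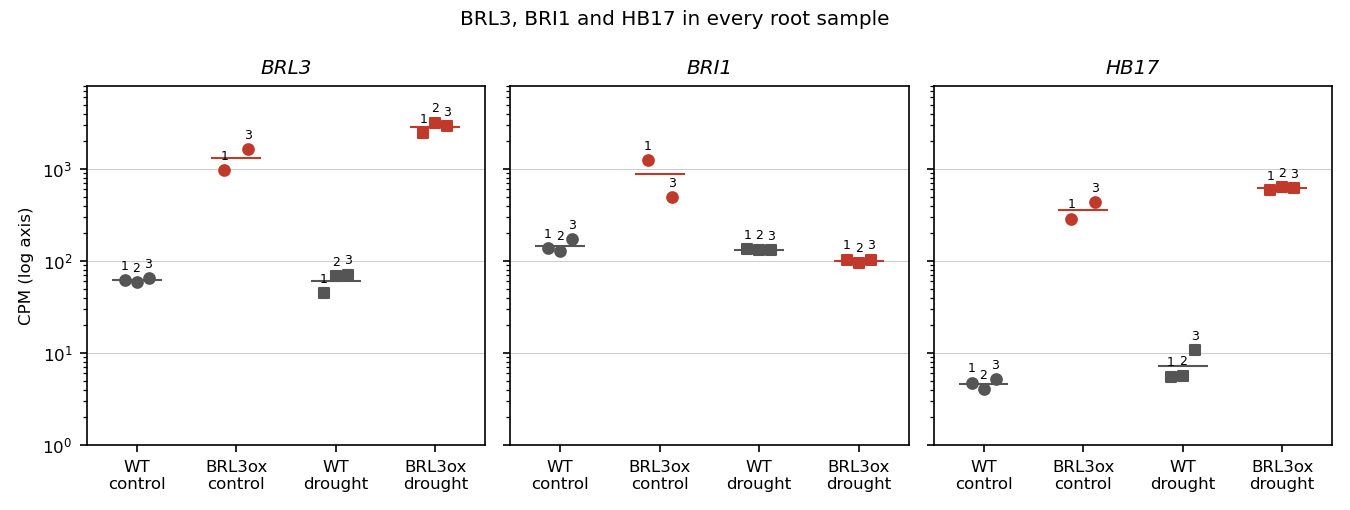
Normalized counts of *BRL3*, *BRI1* and *HB17* in all 11 root samples, in CPM on a log axis. Each point is 1 sample with its replicate number, circles are watered and squares drought samples, and horizontal lines are group means. *BRI1* is raised in the 2 watered BRL3ox samples alone, at 1253 and 497 CPM, whereas *BRL3* and *HB17* are raised in all 5 BRL3ox samples.

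Reads of the related receptors can be told apart at this read length. No stretch of 45 bases, the length of the trimmed reads, was shared between the annotated transcripts of *BRI1* or *BRL3* and those of any other gene. The neighbours of *BRI1* were looked at after its values had been seen. *NST-K1*, *AT4G39380* and the noncoding *AT4G39404* gave log2 fold changes of -0.04, -0.29 and -1.25, none of them called, and *PLS*, at 262 bases the nearest, had between 0 and 14 counts per watered sample. The other receptors of the family did not pass the test: *BRL1* was between 18.4 and 39.5 CPM in WT and at 37.4 and 30.7 CPM in BRL3ox roots, and *BRL2*, a vascular relative, was between 119 and 186 CPM and at 155 and 158 CPM. Of the 12 tested genes of BR perception and signalling, 2 were called, both upward, namely *BRL3* and *BRI1*, and the median log2 fold change of the list was 0.10, beside a median of -0.004 over all tested genes. The coreceptor gene *BAK1* was lower in both BRL3ox samples, at 92.1 and 107 CPM against 110 to 173 CPM, and *BES1* was higher, at 67.9 and 70.5 CPM against 45.3 to 67.8 CPM, but neither passed (adjusted p = 0.202 and 0.464). None of the 9 genes of BR synthesis and inactivation was called by edgeR, with an unadjusted p under 0.05 for 2 and 2 calls by DESeq2. *CPD*, which encodes a synthesis enzyme, was at 23.2, 23.0 and 30.2 CPM in WT and at 14.1 and 14.9 CPM in BRL3ox roots (log2 fold change -0.81, adjusted p = 0.0819), and *BAS1*, which inactivates the hormone, was at 7.25 to 9.31 CPM and at 11.5 and 14.5 CPM (log2 fold change 0.65, adjusted p = 0.0987). *DWF4* overlapped between the genotypes.

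*HB17* (AT2G01430, chromosome 2, minus strand, 187608 to 190369), a class II homeodomain-leucine zipper transcription factor gene, was nearly silent in WT roots, at 4.78, 4.03 and 5.17 CPM, and reached 288 and 433 CPM in BRL3ox roots. The higher value was in the sample with the higher *BRL3* count. Its neighbours on the chromosome were not called. *PIN4* and *AT2G01440*, the nearest protein-coding genes to either side, at 3843 and 2794 bases from it, had log2 fold changes of -0.07 and 0.04, and *MPK17*, at 9121 bases, had -0.22. The noncoding gene *AT2G01422*, between *PIN4* and *HB17*, had 0 counts in all WT samples and 4 and 2 counts in the BRL3ox samples. The neighbours of *BRL3* gave little signal. *WIP3*, 5883 bases away, had a log2 fold change of 0.16, and the other 5 annotated neighbours had between 0 and 16 counts in each watered sample. Among the other 9 tested genes of the HD-ZIP II class, none was called by edgeR and 3 had an unadjusted p under 0.05, and the largest differences were those of *HAT9* (1.73 to 2.13 CPM in WT, 4.07 and 3.8 CPM in BRL3ox) and *HB4* (1.55 to 1.94 CPM and 3.21 and 3.04 CPM), with adjusted p = 0.0819 and 0.0749. DESeq2 called both.

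Genes of jasmonate synthesis were lower in BRL3ox roots. JA is made from plastid lipids: a lipase releases the fatty acid, 13-lipoxygenases (LOX) oxidise it, *AOS* and AOC enzymes cyclise it, and *OPR3* and peroxisomal enzymes complete the hormone. All 14 tested genes of this pathway had lower fitted values in BRL3ox. Both BRL3ox samples lay below every WT sample for 12 of them, beside 18.8% of all tested genes. The test was passed by 3, beside 0.555% of all tested genes called downward. *LOX3*, a lipoxygenase gene, was at 365, 209 and 516 CPM in WT and at 47.2 and 69.3 CPM in BRL3ox roots. It fell by 2.64 on the log2 scale (SE 0.43, adjusted p = 0.0338). *OPR3*, the reductase gene, was at 428, 208 and 417 CPM and at 93.9 and 115 CPM, and the log2 fold change was -1.75 (SE 0.32, adjusted p = 0.0449). *DGL*, a galactolipase gene, was at 8.35, 3.19 and 8.71 CPM and at 0.287 and 0.971 CPM, and the log2 fold change was -3.37 (SE 0.66, adjusted p = 0.0492). In all 3, the WT values spanned a factor of more than 2, with replicate 2 lowest, and none overlapped the BRL3ox values. The other lipoxygenases did not pass: *LOX4* was at 313 to 788 CPM in WT and at 125 and 164 CPM in BRL3ox roots (adjusted p = 0.0559), and *LOX6* at 71.2 to 146 CPM and at 37.3 and 37.5 CPM (adjusted p = 0.0573). The most abundant genes of the middle of the pathway differed less, *AOS* with a log2 fold change of -0.64 and *AOC3* with -0.78. *AOC4* and *JAR1*, the gene of the enzyme that joins JA to isoleucine, were nearly equal in both genotypes, with log2 fold changes of -0.02 each. *AOC1* and *AOC2*, which share 2.79% and 0.717% of their 45-base stretches with other AOC transcripts, were both under 3 CPM. The median log2 fold change over the list was -1.61, or -1.23 with *LOX2*, which had no counts in BRL3ox roots, placed at its bound of 3 counts per library. The summed level of the list was 3365, 2252 and 4318 CPM in WT and 1379 and 1719 CPM in BRL3ox roots.

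JAZ repressors bind and silence the MYC factors until JA brings about their destruction, and their own genes are JA-inducible. Of the 16 tested genes of JA perception and repression, 3 were called, all downward and all JAZ genes. *JAZ10* was at 134, 74.4 and 138 CPM in WT and at 20.2 and 34.1 CPM in BRL3ox roots (log2 fold change -2.09, SE 0.32, adjusted p = 0.0329). *JAZ7* was at 110, 58.6 and 137 CPM and at 21.7 and 34.2 CPM, and *JAZ8* at 99.7, 51.5 and 132 CPM and at 23.5 and 34.2 CPM, with log2 fold changes of -1.87 and -1.71 (adjusted p = 0.0449 and 0.0490). WT replicate 2 was lowest of the WT samples in each of these genes and still at least 1.5 times the higher BRL3ox value. *JAZ9*, *JAZ6* and *JAZ3* were lower in both BRL3ox samples without passing (adjusted p = 0.0683, 0.106 and 0.0938), whereas *JAZ11* and *JAZ12* had log2 fold changes of 0.01 and 0.02. The receptor gene *COI1* and the activator gene *MYC3* were, if anything, higher, at log2 fold changes of 0.28 and 0.45 that did not pass. *MYC2* was listed at 0 in all watered samples and was not tested. The median of the list was -0.64.

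The CYP94 enzymes oxidise the active JA conjugate, *ILL6* and *IAR3* split it, and JOX enzymes hydroxylate free JA. Of the 9 tested genes of JA turnover, 3 were called, all downward. *AT2G38240*, which is JOX4, was at 4.04, 4.69 and 10.2 CPM in WT and at 0.431 and 1.31 CPM in BRL3ox roots (log2 fold change -2.81, SE 0.49, adjusted p = 0.0413). *ILL6* was at 43.0, 24.6 and 47.2 CPM and at 6.61 and 13.0 CPM (log2 fold change -1.96, adjusted p = 0.0449), and *IAR3* at 79.4, 60.9 and 91.4 CPM and at 40.9 and 46.0 CPM (log2 fold change -0.83, adjusted p = 0.0483). *CYP94C1* and *AT5G05600*, which is JOX2, came next, with adjusted p = 0.0511 and 0.0508. The median over the list was -1.53. The JA-responsive defence genes were few, with 3 of 6 tested and none called by edgeR (1 with an unadjusted p under 0.05 and 1 called by DESeq2). *TAT3* was at 40.6 to 94.7 CPM in WT and at 7.23 and 13.6 CPM in BRL3ox roots (adjusted p = 0.065), but *VSP1* and *VSP2*, storage protein genes that JA induces in shoots, overlapped between the genotypes. Leaving out WT replicate 3 ended the calls of *LOX3*, *OPR3*, *DGL*, all 3 JAZ genes, *ILL6* and *IAR3*, and leaving out WT replicate 2 raised the number of called genes from 3 to 10 for synthesis, from 3 to 7 for JAZ and signalling genes and from 3 to 6 for turnover.

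**Figure D2:**
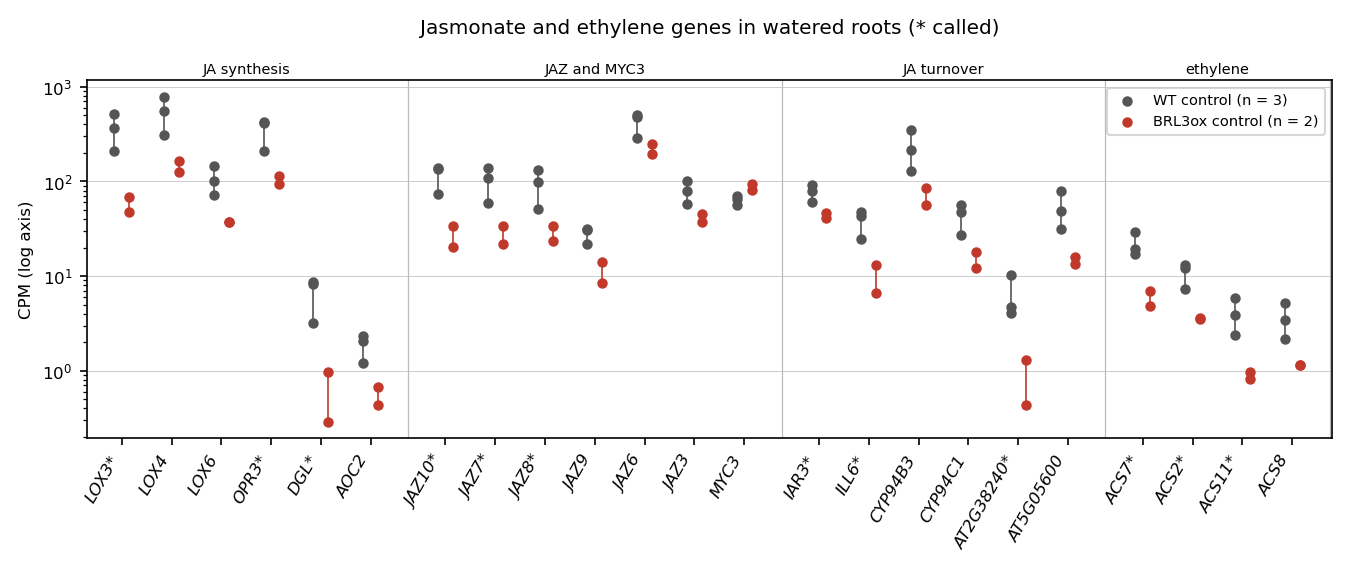
Normalized counts of JA and ethylene genes in the 5 watered samples, in CPM on a log axis, with WT in grey and BRL3ox in red. Points are samples, vertical lines span each group, and asterisks mark called genes. Every gene shown but *MYC3* lies lower in both BRL3ox samples than in all WT samples, as *LOX3* at 47.2 and 69.3 CPM against 209 to 516 CPM. The genes shown are a selection from their lists. *ACO1*, *ACO4*, *VSP1* and *VSP2*, which overlapped between the genotypes, are not shown. Nor are *AOC4*, *JAR1*, *JAZ11* and *JAZ12*, which were nearly equal in both.

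Genes that answer within minutes to touch or wounding are also induced when roots are handled, so they were examined beside the JA genes. Of 24 tested, 1 was called, *WRKY18*, a defence transcription factor gene, at 258, 141 and 334 CPM in WT and at 56.9 and 78.5 CPM in BRL3ox roots (log2 fold change -1.85, SE 0.32, adjusted p = 0.0396). The list as a whole had a median of -0.62, with 17 genes lower and 7 higher. Of the 24, 11 lay below and 4 above all WT samples in both BRL3ox samples, beside 18.8% and 18.2% of all tested genes. The calcium sensor gene *TCH3* was at 121 to 263 CPM in WT and at 73.5 and 92.9 CPM in BRL3ox roots, and *CML38* at 437 to 1018 CPM and at 244 and 319 CPM, but neither passed (adjusted p = 0.065 and 0.0684). *TCH2*, *ZAT10*, *ZAT12* and *SZF2* overlapped between the genotypes, and *CBF1* and *CBF2*, cold-response factor genes, were higher in both BRL3ox samples without passing. The summed level of these 24 genes was 9162, 6736 and 12518.5 CPM in WT and 5561 and 6920 CPM in BRL3ox roots, so that BRL3ox replicate 3 lay within the WT range. Among the WT samples these sums had the same order as those of JA synthesis, with replicate 2 lowest and replicate 3 highest. The part of wound and touch responses in the JA result was not tested.

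Some genes of the first step of ethylene synthesis were lower in BRL3ox roots. ACC synthases (ACS) make the precursor and ACC oxidases (ACO) convert it to ethylene. Of the 8 tested genes, 3 were called, all downward and all ACS genes, and the median of the list was -1.09. *ACS7* was at 19.2, 17.3 and 29.4 CPM in WT and at 4.84 and 6.96 CPM in BRL3ox roots (log2 fold change -1.89, SE 0.25, adjusted p = 0.0236). *ACS2* was at 12.3, 7.26 and 13.2 CPM and at 3.55 and 3.59 CPM, and *ACS11* at 3.89, 2.39 and 5.83 CPM and at 0.815 and 0.971 CPM, with log2 fold changes of -1.61 and -2.16 (adjusted p = 0.0413 for both). Their groups did not overlap. The oxidase genes *ACO1* and *ACO4* overlapped between the genotypes. The summed level of the 8 genes was 1407, 1176 and 1648 CPM in WT and 1072 and 1230 CPM in BRL3ox roots. By this sum BRL3ox replicate 3 lay within the WT range, so the calls do not stand for the pathway as a whole. Of the 3 calls, those of *ACS2* and *ACS11* were lost without WT replicate 3.

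Genes of ABA signalling were called in both directions. Among the 26 tested genes of receptors, phosphatases, kinases and bZIP factors, 3 were upregulated and 2 downregulated, with a median of 0.34. Of all tested genes, 0.217% were called upward and 0.555% downward. Both BRL3ox samples lay above all WT samples for 14 genes of the list and below them for 3, beside 18.2% and 18.8% of all tested genes. Both downregulated genes encode receptors. *PYL5* was at 70.9, 54.4 and 97.8 CPM in WT and at 26.6 and 32.2 CPM in BRL3ox roots (log2 fold change -1.34, SE 0.24, adjusted p = 0.0413), and *PYL6* at 5.72, 4.34 and 6.70 CPM and at 1.63 and 0.802 CPM (log2 fold change -2.21, SE 0.41, adjusted p = 0.0449). *PYL4* was lower in both samples too, at 36.4 and 36.8 CPM against 52.9 to 67.8 CPM (adjusted p = 0.0739), whereas *PYL1*, *PYL7*, *PYL8* and *PYL9* were higher in both samples without passing. Of the 3 upregulated genes, *ABI1* and *HAI1* encode phosphatases, which block the SnRK2 kinases, and *ABF3* a bZIP factor. *ABI1* was at 63.9, 67.6 and 67.3 CPM in WT and at 116 and 130 CPM in BRL3ox roots (log2 fold change 0.89, SE 0.14, adjusted p = 0.0335), and *HAI1* rose as well (log2 fold change 1.63, adjusted p = 0.0319). *ABI2* came close, at 8.55 to 11.1 CPM and at 18.1 and 19.7 CPM (adjusted p = 0.0597), and *HAB1*, *PP2CA*, *HAI2* and *HAI3* lay above WT in both samples without passing. The kinase genes *SNRK2.2*, *SNRK2.3* and *OST1* were nearly equal, with log2 fold changes between -0.07 and 0.01. Of the bZIP factor genes, *ABF3* rose from 67.9, 68.8 and 56.7 CPM to 99.5 and 116 CPM (log2 fold change 0.74, SE 0.13, adjusted p = 0.0413), and *ABF2*, at 25.5 to 29.4 CPM and at 41.4 and 47.1 CPM, did not pass (adjusted p = 0.0597). All 5 calls of this list were lost without WT replicate 3.

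The genes that set the ABA level gave 1 call. *CYP707A1*, which encodes an ABA hydroxylase that breaks the hormone down, fell from 137, 69.9 and 150 CPM in WT to 35.9 and 41.6 CPM in BRL3ox roots (log2 fold change -1.61, SE 0.30, adjusted p = 0.0449). It was the only called gene of 10, and its call was lost without WT replicate 3. *CYP707A3*, a more abundant gene of the family, was at 253 to 367 CPM and at 224 and 267 CPM, so its values overlapped. *NCED3*, which encodes the rate-limiting synthesis enzyme, lay higher in both BRL3ox samples without passing (log2 fold change 1.23, adjusted p = 0.0819).

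Genes responsive to ABA and water deficit did not move as a block. Of 24 tested, 3 were called, all upward, beside 0.217% of all tested genes. The median was -0.03, with 11 genes higher and 13 lower. Both BRL3ox samples lay above all WT samples for 11 genes and below them for 5, beside 18.2% and 18.8% of all tested genes. *HIS1-3*, a drought-inducible linker histone gene, rose from 3.31, 2.13 and 2.72 CPM to 7.43 and 12 CPM (log2 fold change 1.85, SE 0.34, adjusted p = 0.0449). *MYB96*, a transcription factor gene of cuticle wax synthesis, rose from 4.25, 4.69 and 5.66 CPM to 8.91 and 10.9 CPM (log2 fold change 1.03, SE 0.19, adjusted p = 0.0449). *RD22* was the third called gene (log2 fold change 1.26, adjusted p = 0.0338). The protective protein genes split. *COR413-PM1*, of a membrane protein, was at 75.6 to 87.1 CPM in WT and at 132 and 137 CPM in BRL3ox roots (adjusted p = 0.0591), and *LTP3*, of a lipid transfer protein, at 4.07 to 6.56 CPM and at 11.5 and 14.5 CPM (adjusted p = 0.071). In the opposite direction, *LEA14* was at 334 to 584 CPM and at 231 and 260 CPM (adjusted p = 0.0631), and *NAC055*, a transcription factor gene that also responds to JA, at 12.1 to 26.1 CPM and at 3.79 and 6.67 CPM (adjusted p = 0.0508). *RD29A*, *COR47*, *ERD10* and *RD26* overlapped between the genotypes. Without WT replicate 3 the calls of *MYB96* and *HIS1-3* were lost and that of *RD22* was kept, and without WT replicate 2 there were 8 called genes.

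Aliphatic glucosinolates are defence compounds made from methionine by chain elongation and then formation of the core structure. The 17 tested genes of this pathway were all higher in BRL3ox by their fitted values, with a median log2 fold change of 0.69. Both samples lay above all WT samples for 15 of them, beside 18.2% of all tested genes, but 1 of them was called. *SOT18*, the sulfotransferase gene of the last core step, was at 75.2, 78.1 and 66.8 CPM in WT and at 117 and 118 CPM in BRL3ox roots (log2 fold change 0.68, SE 0.08, adjusted p = 0.0236). The log2 fold changes of the others reached 1.1 for *IPMI1*, at 25.5 to 28.3 CPM and at 53.5 and 60.6 CPM, and 1.04 for *CYP79F2*, at 57.9 to 65.6 CPM and at 116 and 133 CPM, yet their adjusted p-values were 0.12 and 0.108. Within each genotype the replicates of these genes differed little. *CYP79F2* shares 3.39% of its 45-base stretches with *CYP79F1* (AT1G16410), which had between 0 and 7 counts per watered sample. The indolic branch, which starts from tryptophan, had no called gene of 9 by edgeR or DESeq2, 3 with an unadjusted p under 0.05, and a median of -0.37. *CYP83B1* of that branch was at 537 to 577 CPM in WT and at 398 and 389 CPM in BRL3ox roots (adjusted p = 0.0927). The summed level was 1099, 1172 and 1142 CPM for the aliphatic list in WT and 1702 and 1883 CPM in BRL3ox roots, and 2086, 1945 and 1891 CPM for the indolic list in WT and 1552 and 1521 CPM in BRL3ox roots, so that the groups did not overlap for either list.

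**Figure D3:**
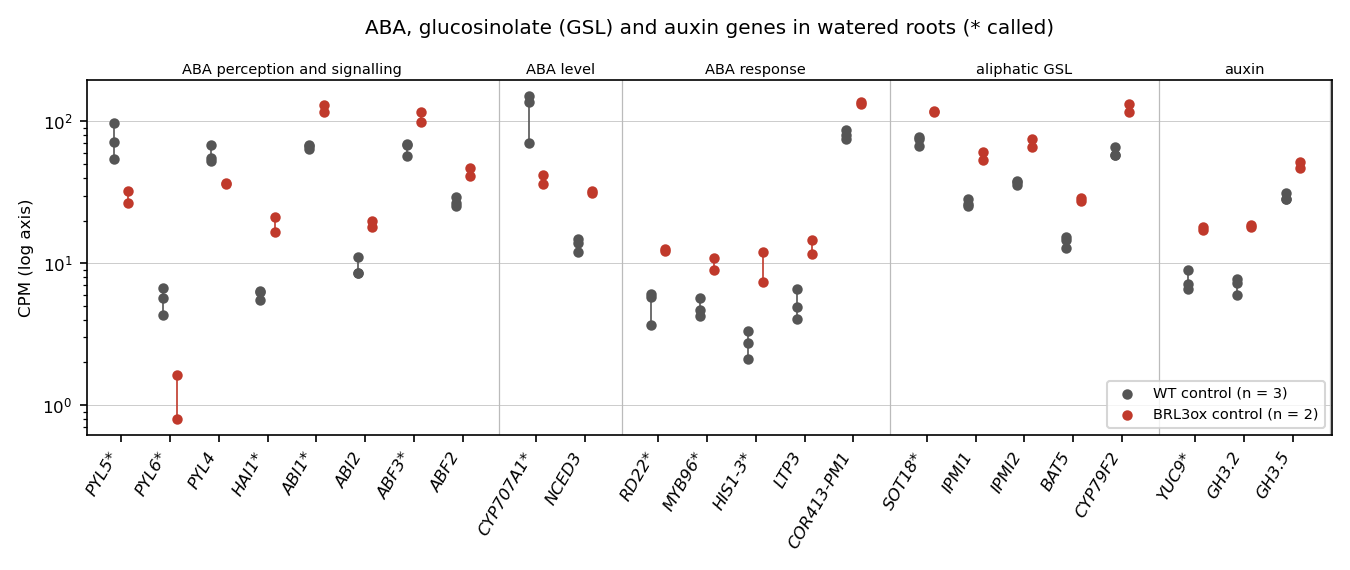
Normalized counts of ABA, aliphatic glucosinolate and auxin genes in the 5 watered samples, in CPM on a log axis, with WT in grey and BRL3ox in red. Points are samples, vertical lines span each group, and asterisks mark called genes. Of the genes shown, *PYL5*, *PYL6*, *PYL4* and *CYP707A1* are lower in BRL3ox roots and the rest higher, as *ABI1* at 116 and 130 CPM against 63.9 to 67.6 CPM. The genes shown are a selection from their lists. Of the 24 tested ABA response genes, 11 were higher and 13 lower by their fitted values. *LEA14* and *NAC055*, both lower, are not shown. Of the 17 tested auxin genes, 9 were higher and 8 lower.

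Auxin genes gave 1 call of 17. *YUC9*, of a flavin monooxygenase that makes the hormone from indole-3-pyruvate, rose from 8.93, 6.60 and 7.13 CPM in WT to 18.1 and 17.2 CPM in BRL3ox roots (log2 fold change 1.22, SE 0.13, adjusted p = 0.0158). *GH3.2* and *GH3.5*, of enzymes that conjugate auxin to amino acids, were at 5.94 to 7.79 CPM and at 18.0 and 18.6 CPM, and at 28.4 to 31.2 CPM and at 47.1 and 51.7 CPM, without passing (adjusted p = 0.0602 and 0.106). *GH3.2* shares 2.78% of its 45-base stretches with its paralogs. The carrier gene *PIN3* was at 71.2 to 108 CPM and at 125 and 143 CPM (adjusted p = 0.103), and *PIN4* overlapped. The median over the list was 0.12.

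Sugar, nitrate and clock genes gave few calls by edgeR. *TPPB*, of a trehalose 6-phosphate phosphatase, was the only called gene of the 14 tested for trehalose, galactinol and raffinose synthesis. It rose from 40.9, 51.0 and 35.2 CPM in WT to 106 and 95.6 CPM in BRL3ox roots (log2 fold change 1.25, SE 0.21, adjusted p = 0.0377), and the call was lost without WT replicate 3. *TPPH* of the same family was also higher, at 30.2 to 40.5 CPM and at 58.8 and 56.8 CPM, without passing (adjusted p = 0.0947). Further genes of the family lay on the opposite side without passing, with *TPPI* at 31.5 to 71.7 CPM and at 20 and 19.4 CPM (adjusted p = 0.0597) and *TPPG* at 119 to 268 CPM and at 78.3 and 100 CPM (adjusted p = 0.0749). None of 15 nitrate genes was called by edgeR, against 3 by DESeq2 and 3 with an unadjusted p under 0.05. The nearest was *NPF7.3*, of a transporter that loads nitrate into the xylem, at 321, 189 and 227 CPM in WT and at 540 and 531 CPM in BRL3ox roots (log2 fold change 1.12, SE 0.23, adjusted p = 0.0524), while *NPF7.2*, which unloads it, was at 16.5 to 47.6 CPM and at 6.56 and 13.2 CPM (adjusted p = 0.102). None of 17 clock genes was called by edgeR, against 4 by DESeq2 and 11 with an unadjusted p under 0.05. Of the 20718 tested genes, 867 were called by DESeq2 and 3305 had an unadjusted p under 0.05. *JMJD5*, a demethylase gene that takes part in the clock of Arabidopsis and belongs to none of the lists, rose from 14.9, 13.2 and 22.3 CPM to 65.1 and 64.8 CPM (log2 fold change 1.95, SE 0.30, adjusted p = 0.0329), and *ELF4*, an evening gene, was at 3.99 to 5.36 CPM and at 18.0 and 9.11 CPM (adjusted p = 0.0716). Of 17 clock genes, 4 lay above and 7 below all WT samples in both BRL3ox samples, beside 18.2% and 18.8% of all tested genes. Among the lower ones, *LNK2* was at 28 to 31.4 CPM in WT and at 8.82 and 13.7 CPM in BRL3ox roots, *PRR9* at 4.79 to 6.24 CPM and at 1.29 and 2.07 CPM, and *PRR7* at 64.3 to 71.4 CPM and at 44.3 and 50.6 CPM (adjusted p = 0.0758, 0.0891 and 0.114). *PRR9* shares 29.3% of its 45-base stretches with AT2G46670. The lists for endodermis, root hair, phloem and xylem markers gave no call by edgeR or DESeq2 among 34 tested genes, of which 3 had an unadjusted p under 0.05, with medians between -0.24 and 0.17. Of the 9 phloem markers, 8 were lower by their fitted values and 6 lay below all WT samples in both BRL3ox samples, beside 18.8% of all tested genes, and their summed level was 691, 747 and 742 CPM in WT and 629 and 649 CPM in BRL3ox roots. The part of phloem content in the results was not tested. *SUC2*, of a phloem sucrose carrier, was at 84.8 to 95.2 CPM in WT and at 55.8 and 70.9 CPM in BRL3ox roots (adjusted p = 0.161).

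**Figure D4:**
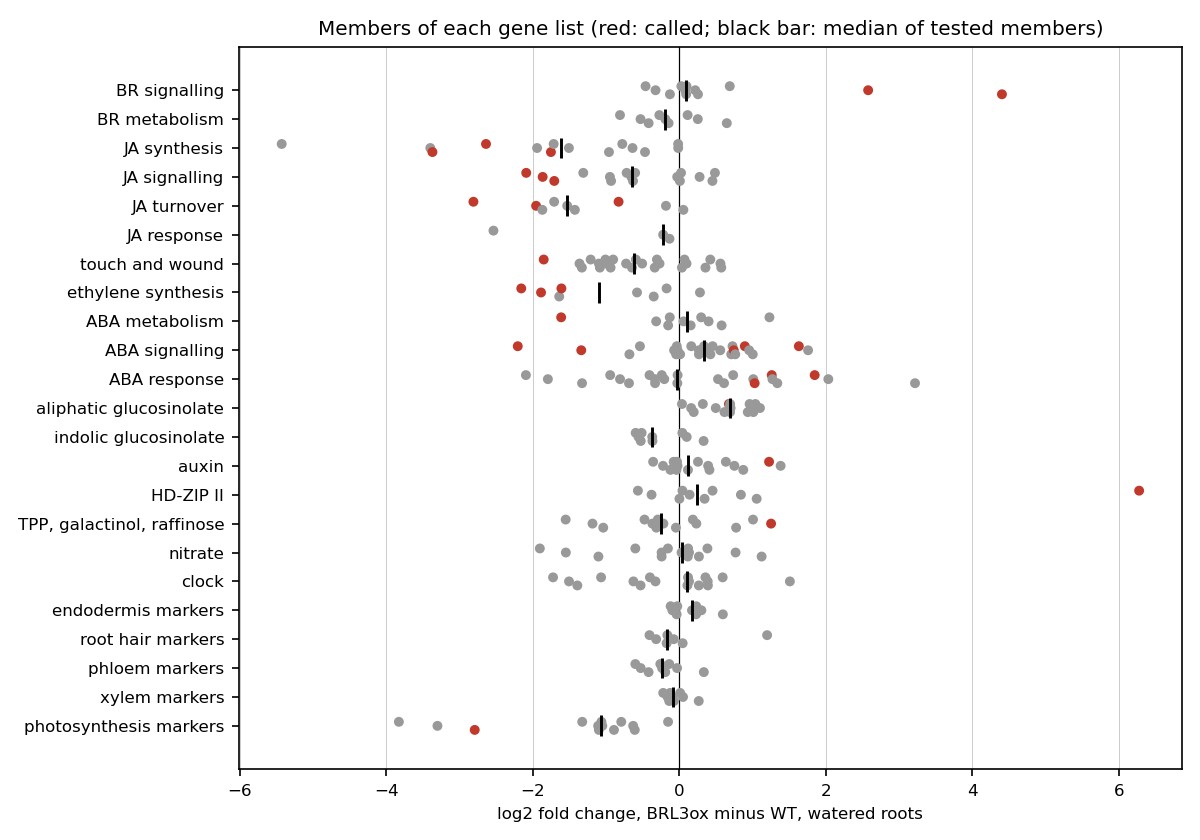
Log2 fold change of each tested list member between watered BRL3ox and WT roots, one row per list, with called genes in red and the median of the list as a black bar. The medians of JA synthesis (-1.61), JA turnover (-1.53), ethylene synthesis (-1.09) and the photosynthesis markers (-1.06) lie farthest to the left and that of aliphatic glucosinolates (0.69) farthest to the right. The leftmost point is *LOX2*, which had no counts in BRL3ox roots.

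Several of the smallest p-values belonged to genes outside these lists. Among the upregulated genes, *ATC*, a homolog of the flowering repressor *TFL1*, rose from 44.6, 30.1 and 29.5 CPM in WT to 91.8 and 94.1 CPM in BRL3ox roots (log2 fold change 1.42, SE 0.16, adjusted p = 0.0158). *MIZ1*, which roots need in order to bend towards moisture, rose from 13.9, 14 and 15.2 CPM to 27.4 and 30.9 CPM (log2 fold change 1.02, SE 0.15, adjusted p = 0.0319). *HB40*, a class I homeodomain-leucine zipper gene, was at 1.68, 0.974 and 1.42 CPM and at 4.46 and 4.89 CPM (log2 fold change 1.79, adjusted p = 0.0236). *UGT72E3*, of a glucosyltransferase of lignin precursors, rose from 11.2, 10.3 and 9.75 CPM to 21.1 and 19.5 CPM, and *CYP77B1*, of a cytochrome P450, rose from between 1.1 and 1.2 CPM to 3.31 and 3.54 CPM. In each of these genes the BRL3ox samples were close to each other.

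Among the downregulated genes, *CYP715A1*, of a cytochrome P450, fell from 13.4, 10.8 and 23.0 CPM in WT to 1.15 and 1.48 CPM in BRL3ox roots (log2 fold change -3.57, SE 0.44, adjusted p = 0.0236). *AAP3*, of an amino acid permease, was at 14.4, 14.9 and 11.7 CPM and at 6.71 and 5.65 CPM (log2 fold change -1.15, SE 0.15, adjusted p = 0.0236), and here the WT spread was narrow and replicate 2 was not the lowest. *SBT3.3*, of a subtilase with a part in immune priming, fell from 11.3, 7.08 and 12.6 CPM to 1.25 and 2.24 CPM, and *PP2-A5*, of a phloem lectin-like protein, from 12, 7.08 and 11.8 CPM to 1.72 and 1.52 CPM. The kinase gene *MAPKKK19* and the copper protein gene *BCB* fell too, with log2 fold changes of -2.15 and -2.51. *AT5G40348*, a long noncoding RNA gene, had 25, 18 and 33 counts in WT and 1 count in each BRL3ox sample.

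The promoters of the called genes were searched for 6 short motifs, within 300 bases before each gene's annotated start in TAIR10.1 and on both strands. The G-box (CACGTG) is bound by MYC and bZIP factors, the ABRE (ACGTGGC or ACGTGTC), which can overlap it, by ABF factors, the W-box (TTGACC or TTGACT) by WRKY factors, and the BR response element (CGTGTG or CGTGCG) by *BZR1*. The rapid stress element (CGCGTT) and the HD-ZIP site (CAATNATTG) were included for wound-responsive genes and for *HB17*. Promoters were read for 20674 tested genes. The G-box occurred in 15 of the 115 downregulated genes (13%), in 3 of the 45 upregulated genes (6.67%) and in 8.08% of all promoters. The BR response element occurred in 23 downregulated genes (20%), in 3 upregulated genes (6.67%) and in 8.11% of all, and the W-box in 46 (40%), 10 (22.2%) and 32.4%. The ABRE occurred in 12 downregulated genes (10.4%), in 5 upregulated genes (11.1%) and in 7.94% of all. The rapid stress element occurred in 3.48%, 4.44% and 3.37%, and the HD-ZIP site in none of the called genes and in 1.25% of all. These shares were not tested and a match is not a bound site.

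The list members that were called and hold a G-box or an ABRE in this window numbered 7, and their matches are shown. Which factors bind them in these roots was not tested. Each line gives the match in capitals with up to 25 bases on either side, 5′ to 3′ on the strand of the gene, read from the RefSeq TAIR10.1 sequence.
*LOX3*, chr1:5977035-5977091, plus strand: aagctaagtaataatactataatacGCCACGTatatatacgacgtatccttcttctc
*JAZ7*, chr2:14572971-14573026, plus strand: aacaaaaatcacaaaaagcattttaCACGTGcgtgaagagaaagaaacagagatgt
*JAZ8*, chr1:10596317-10596351, plus strand: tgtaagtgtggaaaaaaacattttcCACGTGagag
*CYP707A1*, chr4:10521212-10521258, plus strand: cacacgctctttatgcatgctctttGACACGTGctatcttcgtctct
*ABI1*, chr4:13222633-13222676, minus strand: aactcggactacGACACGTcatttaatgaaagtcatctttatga
*TPPB*, chr1:29373656-29373712, plus strand: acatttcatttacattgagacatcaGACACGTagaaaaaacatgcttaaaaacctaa
*HB17*, chr2:190580-190639, minus strand: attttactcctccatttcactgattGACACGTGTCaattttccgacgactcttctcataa
*JAZ7* and *JAZ8* both hold the G-box close to the gene start, ending 28 and 4 bases before it, and both fell in BRL3ox roots. In *CYP707A1*, which fell, a G-box and an ABRE share letters 14 bases before the start. *HB17* holds a G-box flanked by overlapping ABRE letters on both strands, 235 bases before its start. *LOX3*, *ABI1* and *TPPB* hold ABRE letters alone, and *LOX3* fell whereas *ABI1* and *TPPB* rose.

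The genes called in watered roots were then followed in the drought samples, which the watered comparison did not use other than for the estimate of spread. Of the 45 upregulated genes, 40 were also higher in the BRL3ox samples from drought (median log2 fold change 0.51), and 19 of them (42.2%) were called upward there, beside 1.39% of all tested genes. Of the 115 downregulated genes, 110 were lower in drought too, with a median of -0.63, and 33 (28.7%) were called downward, beside 2.12% of all tested genes. In drought, 728 genes (3.51%) were called in all. The same estimate of spread per gene entered both tests, so a gene with a small spread passes both more easily. The shares of genes called again are therefore a description. The genes were chosen for a large watered difference, so a smaller median in drought is no measure of a weaker genotype difference there. *PYL5*, with -1.21, *TPPB*, with 1.27, and *MYB96*, with 1.23, had drought values close to or beyond their watered ones and were called again. *LOX3*, *JAZ7* and *CYP707A1* had drought log2 fold changes of -0.43, -0.36 and -0.35 and were not called.

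An interaction test, the genotype difference in drought minus that when watered, passed an FDR of 0.05 for 2 genes (0.00965% of those tested), both of them among the called ones. *YUC9* had a log2 fold change of 1.22 when watered and -0.45 in drought, and *AAP3* one of -1.15 when watered and 0.57 in drought. An unadjusted interaction p under 0.05 was found for 106 of the 160 called genes (66.25%) and for 10.8% of all tested genes. The watered difference enters the interaction, so the former share is a description. For *LOX3* the interaction was 2.21 (adjusted p = 0.245) and for *ACS11*, which was lower still in drought (log2 fold change -4.59), it was -2.43 (adjusted p = 0.228), and neither passed.

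**Figure D5:**
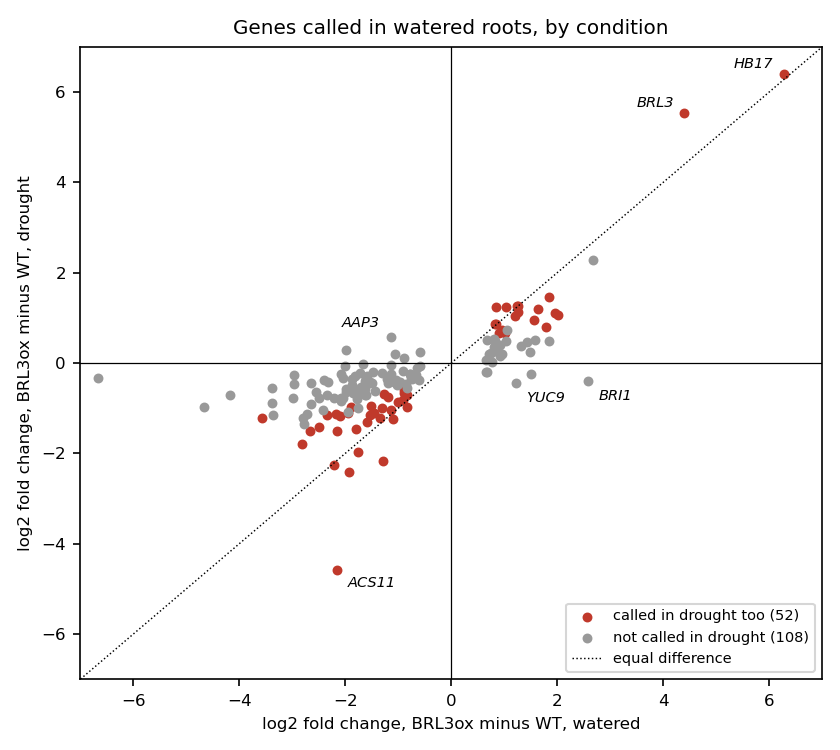
Log2 difference of BRL3ox from WT when watered (x axis) and in drought (y axis) for the 160 genes called when watered, with the 52 also called in drought in red. The dotted line marks an equal difference. Most points lie on the same side of 0 on both axes and nearer to 0 in drought, and *BRI1*, *YUC9* and *AAP3* are among those on opposite sides. The leftmost point is a gene without counts in either watered BRL3ox sample.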

How the data were processed

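RNA was taken from mature roots with a plant RNA kit, and strand-specific poly(A) libraries were read as 50-base single ends, cut by 5 bases at the 3′ end and quality filtered. Each deposited table holds the raw counts of 1 sample by gene, made by the authors with HISAT2 2.1.0 and HTSeq 0.9.1 on TAIR10, per the labels' processing notes. The 5 summary entries of each table (10.5 to 12.9% of all counts) were left out of library sizes and tests.

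Counts of all 11 samples were fitted with edgeR 4.0.16 (R 4.3.3) as 4 groups after filterByExpr and TMM scaling, with quasi-likelihood tests and Benjamini-Hochberg adjustment over all 20718 tested genes. The interaction contrast used the same fit. SEs were derived from the fold change and its F statistic. No samples agreed within sampling noise. Library totals lay between 18610736 and 22817390 counts. Alternatives comprised RLE scaling, DESeq2 1.42.0, the likelihood ratio test, other filters and thresholds, the 5 watered samples alone, a replicate block and leaving out each sample. The scripts' tests were checked on simulated counts.

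Genes were named by rule: *BRL3*, the 15 smallest p-values in each direction, called members of the 23 lists, up to 4 further members per list with the smallest p, and the 3 neighbours on each side of *BRL3* and *HB17*. Members and lists were chosen with earlier results of these data known. Other list members, given for contrast or as background, and the neighbours of *BRI1* were chosen after their values were seen. Names and positions came from the RefSeq annotation of TAIR10.1, which held 33056 of 33341 gene IDs. The values of 1 list member are not reported here.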

Additional observations from a re-analysis of the deposited data

Results flagged for a closer look

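For 2 genes the genotype difference differed between drought and watered roots by the interaction test of edgeR. For *YUC9* the difference in drought minus that when watered was -1.68 on the log2 scale, with 8.93, 6.60 and 7.13 CPM in watered WT against 18.1 and 17.2 CPM in watered BRL3ox roots (adjusted p = 0.0284). For *AAP3* it was 1.71, with 14.4, 14.9 and 11.7 CPM in watered WT against 6.71 and 5.65 CPM in watered BRL3ox roots (adjusted p = 0.0284). No sample was compared with its own group for distance, since no group held more than 3 samples.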

How the results depend on the processing

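The 160 called genes kept their direction in every alternative that tested them, but their number did not keep. It was 867 with DESeq2 (233 up, 634 down), 925 with the likelihood ratio test (281 and 644) and 306 with no filter on low counts (73 and 233). With the 5 watered samples alone it was 2 (2 up and 0 down, with 3322 genes at an unadjusted p under 0.05), and a fold change over 2 left 25 upregulated genes. Leaving out 1 sample gave 3 to 921 called genes, 3 to 217 up and 0 to 704 down. The upregulated share of calls, 28.1%, was 47.1% without WT drought replicate 2, 43.3% and 40% without BRL3ox drought replicates 2 and 1, 39.6% without BRL3ox drought replicate 3, and 100% in the fits with 2 to 4 calls. For drought, 728 calls became 1318 with DESeq2, 1414 with the likelihood ratio test, 343 with a fold change over 2 and 108 to 1049 with a sample left out. The 2 interaction calls became 214, 202, 5 with no filter and 0 to 7 with a sample left out.

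Same-numbered samples correlated at -0.088 to 0.412 over 15 pairs, 11 of them over 0.1, and no source says that the numbers mark a shared origin. A fit with the replicate number as a block called 718 genes (178 up, 540 down), 1233 in drought and 8 for the interaction.

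Of the named genes, 6 that were not called turned direction with a sample left out. Over the left-out samples *VSP2* ran from -0.545 to 0.0106 and *VSP1* from -0.397 to 0.264 (both highest without WT replicate 1), *COBL9* from -0.365 to 0.083 (highest without WT replicate 3), *PIN4* from -0.162 to 0.0133 and *AT2G01440* from -0.00804 to 0.081 (both highest without BRL3ox replicate 1), and *LAC17* from -0.0257 to 0.489 (lowest without BRL3ox replicate 3). The watered BRL3ox group held 2 samples, which limits the precision of each value.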

Other observations

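Further called genes were picked after their values had been seen, and how many members of their families were called is not given. They are single genes and do not stand for cell wall or osmotic metabolism as a whole. *XTR6* and *XTH24*, of enzymes that remodel xyloglucan in the cell wall, were at 380, 211 and 471 CPM in WT and at 106 and 109 CPM in BRL3ox roots, and at 91.7, 65.4 and 88.8 CPM and at 36.7 and 45.2 CPM. Both fell (log2 fold changes -1.72 and -1.0, edgeR adjusted p = 0.0402 and 0.0449). *EXPA8*, of a wall-loosening expansin, rose from 1.58, 1.82 and 1.31 CPM to 4.26 and 3.63 CPM. *ERD5*, of a proline dehydrogenase, which breaks down this osmolyte, fell from 246, 170 and 247 CPM to 89.4 and 111 CPM (log2 fold change -1.14, adjusted p = 0.0469). It was also called downward in drought, with -1.05.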
